A study of Mus musculus with 6 samples.

Results

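Peptidases cut peptide bonds and peptidase inhibitors hold them in check, and 111 transcript clusters of these classes were found among the 3956 clusters listed for mouse lateral ventricular choroid plexus at embryonic day 15 (E15) or in the adult. A cluster was counted when the molecular function column of the deposited tables held the words "peptidase activity" or "peptidase inhibitor". Clusters placed in the extracellular matrix, lysosome or mitochondrion, or in the cell cycle, cell adhesion or the immune response, were left out, which removed 42 that held those words. Of the 111 members, 86 carried a peptidase term alone, 20 an inhibitor term alone and 5 both.

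The plexus was taken whole from Swiss Webster mice, and its RNA went through 2 rounds of amplification before hybridisation to the Affymetrix Mouse Exon 1.0 ST array. Per the labels each of the 3 E15 arrays came from a pool of 30 healthy embryos of mixed sex, written "E15 pup" there, and each of the 3 adult arrays from a pool of 10 healthy females, while the supplement gives other pool sizes. Sex and age cannot be told apart in this design. Whole plexus holds epithelium, stroma, vessels and blood, so fewer cells of a type and less RNA per cell cannot be told apart in any value below.

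The tables give 1 merged log2 value per age for each cluster, centred so that the adult and E15 values of most clusters lie on either side of 0, though not always at equal distance, and no value of a single array. All differences below are the adult value minus the E15 value on that log2 scale, folds are 2 to the size of the difference, and no error or test could be computed for any of them. A cluster was listed either because it passed the authors' gene-level filter, a corrected p of at most 0.05 with a fold of at least 2, or because it passed their filter for alternative splicing. Absolute levels, and the order of genes by level, cannot be read from centred values.

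Peptidases are grouped by the residue or ion that does the cutting, as serine, cysteine, aspartic, threonine and metallopeptidases. Some work inside cells, in protein turnover, cell death and the trimming of ubiquitin, while others are secreted or held at the cell surface, where they activate or inactivate hormones and growth factors and cut blood and matrix proteins. The choroid plexus secretes cerebrospinal fluid and lies between it and the blood, and it is a known source of secreted inhibitors such as cystatin C and of enzymes that handle vasoactive peptides.

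Members were spread over both directions much as the whole table was. Of the 111, 29 (26.1%) were at least 2-fold higher in adult plexus and 30 (27.0%) at least 2-fold higher at E15, against 22.9% and 24.4% of all 3956 clusters, and 52 lay below 2-fold. Their median difference was -0.16, the same to 2 decimals as the median of all clusters. At 3-fold the members were 14 (12.6%) toward adult and 8 (7.21%) toward E15, against 8.87% and 9.98% of all clusters. Differences ran from -3.27 for the secreted growth factor antagonist Wfikkn2 to 2.93 for the carnosine-splitting dipeptidase Cndp1. The gene-level table held 58 of the members (52.3%), against 45.6% of all clusters, and the other 53 were listed for splicing only. Of those 53 only Itih2 reached 2-fold by its merged values.

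**Figure D1:**
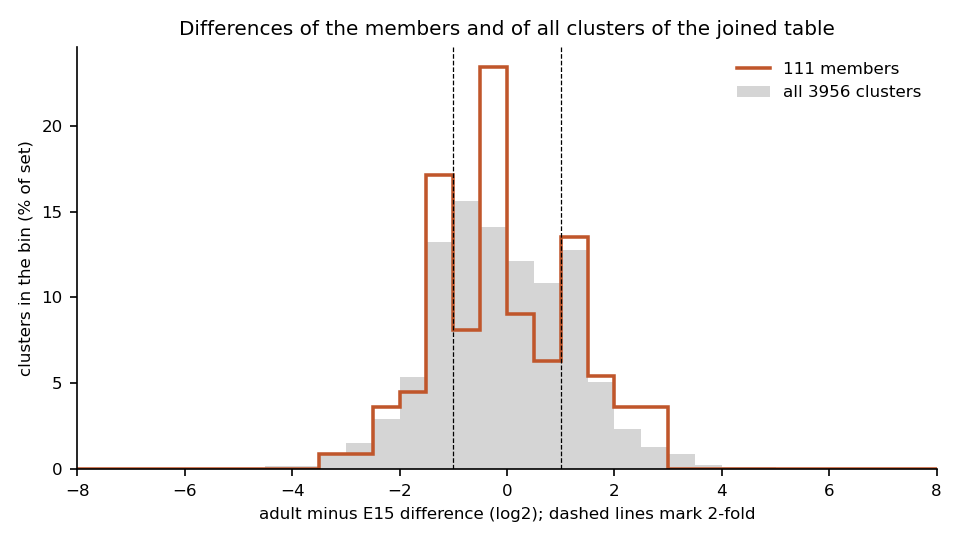
Share of clusters (%, vertical axis) in bins of the adult minus E15 difference (log2, horizontal axis) for the 111 members (outline) and all 3956 clusters (grey bars), with 2-fold marked by dashed lines. Members reach from -3.27 to 2.93 and share their median of -0.16 with the whole table.

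By role the counts were also mixed. Among the 86 clusters with a peptidase term alone, 19 were at least 2-fold higher in adult and 23 at E15, with a median of -0.26. Among the 20 with an inhibitor term alone, 6 and 7 were, with a median of -0.11. Of the 5 clusters with both kinds of term, 4 were at least 2-fold higher in adult and none at E15, and all 5 encode proteins known as inhibitors (Serpinb8, Spint1, the Serpina1 cluster, Serpinb9 and Spint2). Taking these 5 as inhibitors as well, 10 of 25 inhibitors were at least 2-fold higher in adult and 7 at E15. Of all 3956 clusters 22.9% and 24.4% were, as above. The serine-type enzymes had 4 members toward adult and 5 toward E15 of 17, the cysteine-type 7 and 6 of 24, the metallo-enzymes 6 and 7 of 27, and the aspartic-type 0 and 2 of 5.

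**Figure D2:**
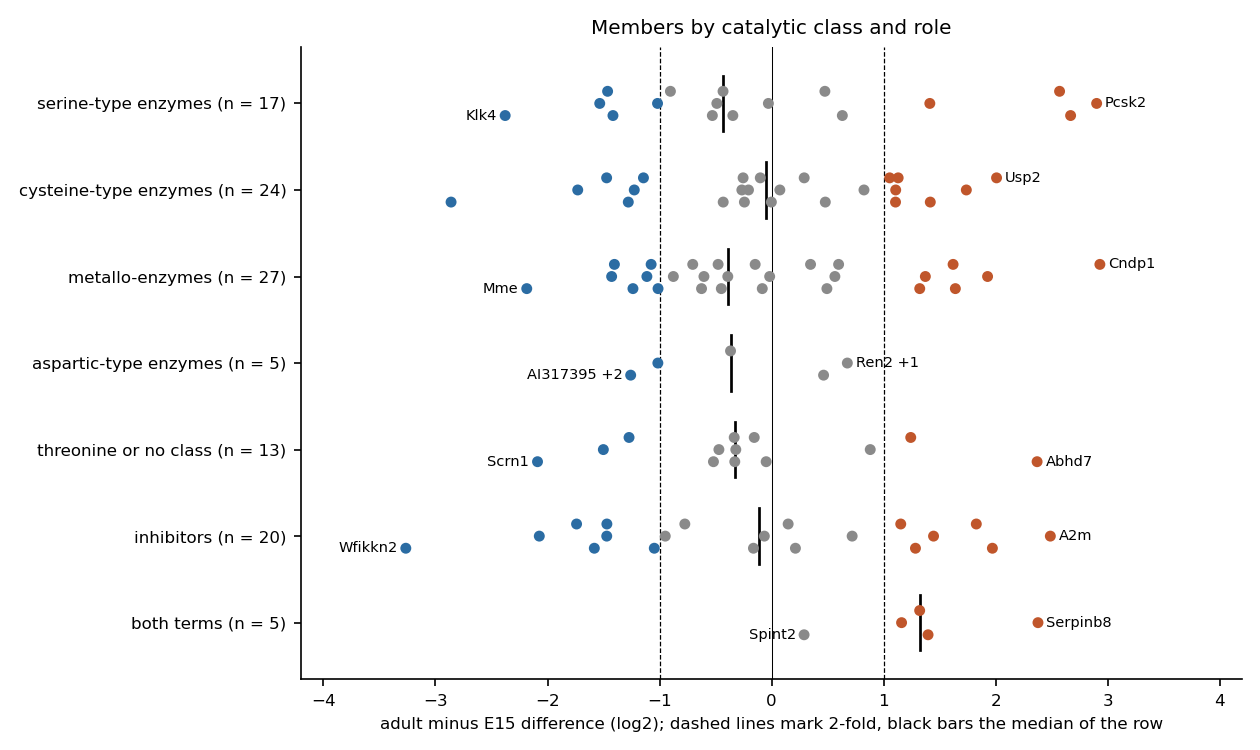
Adult minus E15 difference (log2, horizontal axis) of each member by catalytic class for enzymes and by role for inhibitors; each point is 1 transcript cluster, coloured orange at 2-fold or more toward adult, blue at 2-fold or more toward E15 and grey between, and black bars are row medians. The serine, cysteine, metallo-enzyme and inhibitor rows each hold members beyond 2-fold on both sides, and the extremes are labelled where the gene is described, with the number of further symbols of a shared cluster after a plus sign.

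The sequence upstream of the start is shown for members with large differences in each direction, though not always the largest. Members far apart in the data could be compared there with each other and with all promoters. RefSeq promoters on GRCm38.p6 were found for 73 members that stand alone in their cluster, and the 250 bases before the start are printed 5' to 3' on the gene's strand for the largest differences in each direction that had a single listed start, with CG pairs, the sites of DNA methylation, in capitals. Wfikkn2 (chr11:94242580-94242829, minus strand) and Klk4 (chr7:43880910-43881159, plus strand) were higher at E15, and Pcsk2 (chr2:143545883-143546132, plus strand) and Corin (chr5:72504541-72504790, minus strand) higher in adult.
Wfikkn2: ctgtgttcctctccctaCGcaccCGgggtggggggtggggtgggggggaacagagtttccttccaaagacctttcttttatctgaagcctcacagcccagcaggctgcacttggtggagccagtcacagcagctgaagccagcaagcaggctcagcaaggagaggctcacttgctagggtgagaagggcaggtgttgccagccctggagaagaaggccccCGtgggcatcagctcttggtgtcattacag
Klk4: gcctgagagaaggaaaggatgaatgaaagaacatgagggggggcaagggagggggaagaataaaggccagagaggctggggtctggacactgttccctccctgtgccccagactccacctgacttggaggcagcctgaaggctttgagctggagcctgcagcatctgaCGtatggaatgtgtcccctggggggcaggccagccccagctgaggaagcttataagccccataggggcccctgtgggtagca
Pcsk2: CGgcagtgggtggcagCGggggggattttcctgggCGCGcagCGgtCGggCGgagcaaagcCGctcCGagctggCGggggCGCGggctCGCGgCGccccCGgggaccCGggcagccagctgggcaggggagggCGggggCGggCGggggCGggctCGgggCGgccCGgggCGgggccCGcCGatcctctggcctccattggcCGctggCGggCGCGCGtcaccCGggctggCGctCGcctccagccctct
Corin: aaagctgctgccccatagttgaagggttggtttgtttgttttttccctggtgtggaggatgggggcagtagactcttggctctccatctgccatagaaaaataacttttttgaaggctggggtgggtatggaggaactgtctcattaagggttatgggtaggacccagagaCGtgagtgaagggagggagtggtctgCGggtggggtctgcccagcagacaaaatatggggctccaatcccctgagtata

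Of these 4 promoters that of Pcsk2 alone was dense in CG, with 35 pairs, and the others held 3 (Wfikkn2), 1 (Klk4) and 2 (Corin). A ratio of observed to expected CG of at least 0.6 was found in 10 of 20 promoters of members at least 2-fold higher in adult, in 11 of 21 at E15 and in 21 of 32 of those below 2-fold. The shares were 50% and 52.4% in the outer groups, 57.5% over all 73 members, 60.7% over the 2468 promoters of genes in the whole table and 34.0% of the 32851 promoters known to RefSeq here. A TATAAA motif, searched on the gene's strand in the last 50 bases, was in 0 of the 73, in 1.34% of the promoters of genes in the whole table and in 2.63% of all promoters. The shares in the groups of either direction were thus within a few points of each other, and below the share of the whole table.

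**Figure D3:**
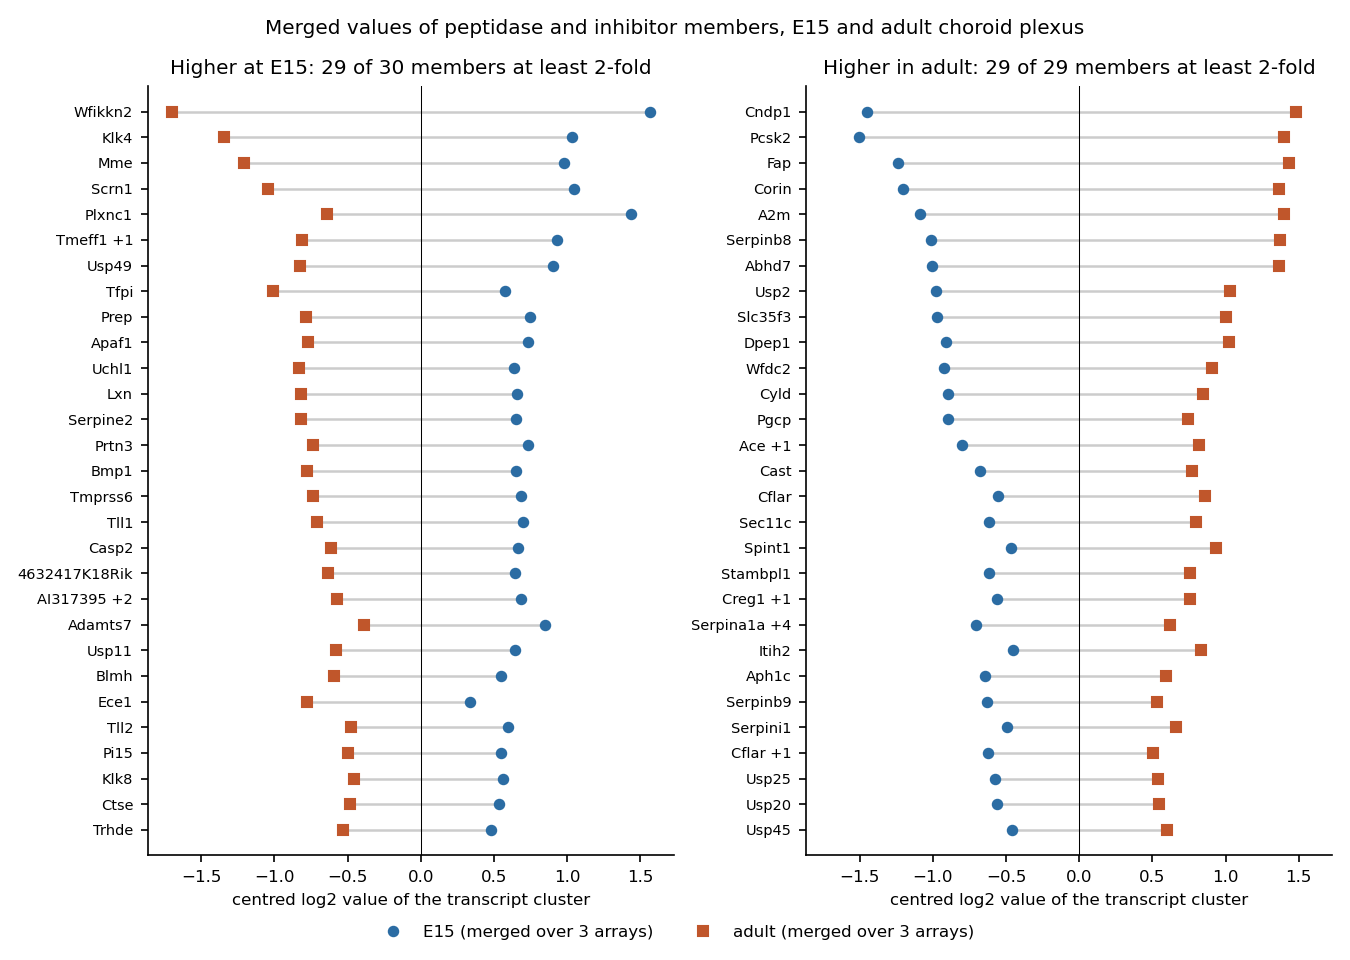
Merged log2 value at E15 (blue circles) and in adult (orange squares) for 29 of the 30 members at least 2-fold higher at E15 (left) and the 29 at least 2-fold higher in adult (right), with a line joining both ages; values are centred within each cluster, so levels of different rows are not comparable. The longest lines are those of Wfikkn2, 1.56 at E15 and -1.70 in adult, and of Cndp1, 1.48 in adult and -1.45 at E15.

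The serine peptidases held large differences in both directions. Pcsk2, the proprotein convertase of neuroendocrine secretory granules, had a merged value of 1.40 in adult and -1.50 at E15, a 7.48-fold difference. Fap, a surface dipeptidyl peptidase known from activated fibroblasts, stood at 1.43 and -1.24, or 6.36-fold. Corin, the transmembrane enzyme that activates the precursor of atrial natriuretic peptide, stood at 1.37 and -1.21, or 5.94-fold. All 3 are enzymes known to act on hormones or peptides in the secretory path or at the cell surface. Among the members, the closest relatives of Pcsk2 and Fap did not follow them. Pcsk5, another convertase, had a difference of -0.90, and Dpp4, the dipeptidyl peptidase that inactivates incretins, had -0.35. Dpp7, of the same list as Fap but removed from the members by the exclusion words, had 2.38. In RefSeq gene order 1 coding gene separates Dpp4 from Fap.

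On the other side, Klk4, a tissue kallikrein known from the maturation of tooth enamel, had a merged value of -1.35 in adult and 1.03 at E15, or 5.20-fold higher at E15. Klk8, a brain kallikrein also called neuropsin, was 2.02-fold higher at E15 with values of -0.45 and 0.56. These are both listed kallikreins, and 3 coding genes lie between them in RefSeq order. Tmprss6, the surface enzyme that cuts hemojuvelin in liver and so regulates hepcidin, was 2.67-fold higher at E15. Prep, a cytosolic prolyl oligopeptidase of short peptides, was 2.90-fold higher at E15. Of the 8 members of the trypsin-like list 4 were at least 2-fold higher at E15 (Klk4, Klk8, Tmprss6 and Prtn3) and 1, Corin, in adult, which is 50% and 12.5% against 24.4% and 22.9% of all clusters. Klk8 fell below 2-fold when both ages were re-centred on the median of the whole table. Below 2-fold were the urokinase gene Plau at -0.43 and haptoglobin (Hp), which has the fold of these enzymes but no activity, at -0.03. So was the thymic enzyme Prss16, taken into the list by its symbol alone, at 0.48.

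Prtn3, the proteinase of neutrophil granules, was 2.76-fold higher at E15, at -0.73 in adult and 0.73 at E15. Of 9 neutrophil and myeloid progenitor genes looked up it was the only one with an entry, and erythroid markers were higher at E15 for all 8 entries of 10, with a median difference of -2.54. The part of blood cells in the Prtn3 value was not tested. The signal peptidase subunits, which cut the leader from secreted proteins, went separate ways, since Sec11c was 2.66-fold higher in adult (0.80 against -0.62) and Sec11a had a difference of -0.53. Dpp6, an inactive relative of Dpp4 that binds potassium channels, had -0.49, and the rhomboid Rhbdl3, an intramembrane enzyme, 0.63.

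Among metallopeptidases the 3 members of the dipeptidase list all had positive differences, as did 1815 of all 3956 clusters. Scrn1, which carries a dipeptidase term but no metallo term and is outside that list, had -2.09. The 3 tolloid-family enzymes were all at least 2-fold higher at E15, against 24.4% of all clusters. Cndp1, a carnosine dipeptidase that its annotation here places in the cytoplasm, had a merged value of 1.48 in adult and -1.45 at E15. Its 7.63-fold difference was the largest toward adult of any member. Dpep1, a membrane dipeptidase that splits leukotriene D4, stood at 1.02 and -0.91, or 3.81-fold higher in adult. Cndp2, the cytosolic relative that lies next to Cndp1 with no coding gene between them in RefSeq order, had a difference of 0.60. The adjacent genes shared a sign, and Cndp2 was listed for splicing only, as all members below 2-fold were.

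The tolloid-family enzymes trim the ends of fibrillar procollagens and cut chordin, an antagonist of bone morphogenetic proteins. Bmp1 stood at -0.77 in adult and 0.65 at E15, or 2.69-fold higher at E15. Tll1 was close to it, at -0.71 and 0.70 and 2.64-fold, and Tll2 was 2.11-fold higher at E15, at -0.48 and 0.60. The same direction held for Adamts7, an enzyme that cuts cartilage oligomeric matrix protein, at -0.39 and 0.85 and 2.36-fold. Of the 7 members of the list of matrix metalloproteinases, ADAM, ADAMTS and astacin enzymes, these 4 (57.1%) were at least 2-fold higher at E15, against 24.4% of all clusters, and Tll2 fell below 2-fold when both ages were re-centred on the median of the whole table. The remaining 3 were Adam22, an inactive neuronal surface protein, at -0.08, the epididymal Adam7 at 0.35, and a cluster shared by Creg1 and Pappa2, a metalloproteinase that cuts insulin-like growth factor binding proteins, at 1.32. That cluster cannot be assigned to either gene. Mesenchymal markers were higher at E15 too, in 7 of 8 entries of the 10 looked up and at least 2-fold in 6, with a median of -1.39, and their part in these values was not tested.

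The metallopeptidases that handle vasoactive and neural peptides differed from each other in direction. Mme, or neprilysin, which degrades enkephalins, natriuretic peptides and amyloid beta, had a merged value of -1.21 in adult and 0.98 at E15, or 4.55-fold higher at E15. Ece1, which makes endothelin, was 2.16-fold higher at E15, at -0.78 and 0.33, whereas its relative Ece2 had a difference of -0.02. Trhde, which inactivates thyrotropin-releasing hormone, was 2.02-fold higher at E15. Toward adult stood Ace, the angiotensin-converting enzyme, in a cluster it shares with Ace3, at 0.82 in adult and -0.80 at E15 and 3.08-fold. Lnpep, an aminopeptidase that inactivates oxytocin and vasopressin, had 0.57. Of the 9 members of this list of metallopeptidases, the Ace cluster alone (11.1%) was at least 2-fold higher in adult, against 22.9% of all clusters. Toward E15 3 (33.3%) were, against 24.4%. Ece1 and Trhde fell below 2-fold when both ages were re-centred on the median of the whole table. Renin, the enzyme upstream of Ace, was listed in a cluster shared by Ren2 and Ren1 with a difference of 0.68. Kel, the Kell blood group enzyme that can also make endothelin, had -0.39, and the methionine aminopeptidase Metap2, which the list also took in, -0.62.

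Of the other metallo-enzymes Pgcp and Stambpl1 were at least 2-fold higher in adult. Pgcp, a plasma carboxypeptidase now named Cpq, stood at 0.75 in adult and -0.90 at E15, or 3.12-fold. Stambpl1, a zinc-dependent deubiquitinase, was 2.59-fold higher. The cytosolic carboxypeptidases that shorten polyglutamate tails of tubulin, which is a modification of cilia, had -0.60 (Agbl3), -0.48 (Agbl2) and 0.49 (Agtpbp1), so none reached 2-fold and they did not share a sign. The aminopeptidases Xpnpep1 and Dnpep had -0.70 and -0.15, and Amz2 had -0.45.

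Among the cysteine peptidases the initiator caspase Casp2 was higher at E15, and the inhibitory caspase relative Cflar was higher in adult. Casp2 had a merged value of -0.61 in adult and 0.66 at E15, or 2.43-fold. Apaf1, the scaffold of the apoptosome, was 2.83-fold higher at E15 at -0.77 and 0.73. Apaf1 is no peptidase itself and was counted by the bare term peptidase activity. Cflar, which resembles an initiator caspase but cannot cut and blocks death receptor signals, had 2 clusters, and both were higher in adult, by 2.67-fold and, for the cluster it shares with another symbol, 2.19-fold. Cell cycle markers were lower in adult in all 10 entries of 11 symbols, of which Cdk1 and Cdc2a name the same gene. Their median was -3.15, and their part in the Casp2 and Apaf1 values was not tested. Espl1, the separase that opens cohesin at anaphase, is both a member and a cell cycle marker and had a difference of only -0.27.

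Calpains, the calcium-activated cytosolic peptidases, differed little while their inhibitor differed more. Capn5, Capn2 and Capn7 had differences of -0.25, -0.24 and -0.10. Cast, or calpastatin, the inhibitor of the conventional calpains, had a merged value of 0.77 in adult and -0.68 at E15 and was 2.72-fold higher in adult. The 3 calpains were listed for splicing only, and Cast stood in the gene-level table.

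The largest family was that of the peptidases that remove ubiquitin or ubiquitin-like proteins, with 15 members, of which 6 (40%) were at least 2-fold higher in adult and 3 (20%) at E15, against 22.9% and 24.4% of all clusters. Usp2, a deubiquitinase whose expression follows the circadian clock, had a merged value of 1.03 in adult and -0.98 at E15, or 4.02-fold. Cyld, which takes linear and lysine-63 ubiquitin chains off signalling proteins of the NF-kappa-B path, was 3.34-fold higher in adult at 0.84 and -0.89. Usp25, Usp20 and Usp45 were 2.16-fold, 2.15-fold and 2.08-fold higher in adult, and Stambpl1 was given above. Toward E15 stood Usp49, known as a histone H2B deubiquitinase, at -0.83 in adult and 0.90 at E15 and 3.32-fold. Uchl1, an abundant hydrolase of neurons, was 2.77-fold higher at E15, and Usp11 was 2.34-fold higher. The remaining 6 ran from -0.43 for Usp21 to 0.83 for the cluster of the autophagy peptidase Atg4c, with Usp5, which recycles free ubiquitin chains, at -0.00. Psmb2, a proteasome subunit and the only threonine-type member, had -0.52. Blmh, bleomycin hydrolase, an aminopeptidase of the cytosol, was 2.21-fold higher at E15.

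Few aspartic and intramembrane enzymes were listed. Ctse, cathepsin E of endosomes, was 2.02-fold higher at E15. The signal peptide peptidase H13 had a difference of 0.46 and its relative Sppl3 had -0.37. Aph1c, a subunit of gamma-secretase, was 2.37-fold higher in adult with values of 0.60 and -0.65. A cluster shared by AI317395 and a pair of other symbols was 2.39-fold higher at E15 and carries an aspartic-type term, while AI317395 is named Mfsd4b1, a transporter, in RefSeq.

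The 9 serpins belong to a family made up mostly of suicide inhibitors of serine peptidases. Of them 4 (44.4%) were at least 2-fold higher in adult and 1 (11.1%) at E15, against the same 22.9% and 24.4% of all clusters. Serpinb8, an intracellular serpin that can inhibit furin, had a merged value of 1.37 in adult and -1.01 at E15, or 5.20-fold. The Serpina1 cluster, which holds the alpha-1-antitrypsin genes Serpina1a to Serpina1e and cannot be split between them, was 2.50-fold higher in adult. Serpinb9, the inhibitor of granzyme B, was 2.24-fold higher in adult, and Serpini1, or neuroserpin, which inhibits tissue plasminogen activator, 2.22-fold. Toward E15 stood Serpine2, or protease nexin-1, an inhibitor of thrombin and plasminogen activators, at -0.82 in adult and 0.65 at E15 and 2.77-fold. Serpina3c had 0.15, the Serpinb1a and Serpinb1c cluster -0.06, and Serpinf1, the antiangiogenic factor PEDF, -0.77. The serpins thus held differences on both sides, with more of the larger ones toward adult.

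Inhibitors with Kunitz, Kazal or WAP domains included the largest difference of all members. Wfikkn2, a secreted protein with several such domains that binds and blocks myostatin and GDF11, had a merged value of -1.70 in adult and 1.56 at E15, a 9.61-fold difference, and its promoter is printed above. Wfdc2, a small secreted WAP protein of epithelia also called HE4, went the other way, at 0.91 and -0.92 and 3.55-fold higher in adult. Tfpi, which blocks the start of coagulation by factor Xa and tissue factor, was 2.99-fold higher at E15 at -1.01 and 0.57. Endothelium, a source of Tfpi, had marker genes higher at E15 in all 5 entries of 10, with a median of -1.23, and their part in the Tfpi value was not tested. The surface inhibitors Spint1 and Spint2, which restrain hepatocyte growth factor activator and matriptase at epithelia, had a 2.63-fold difference toward adult (0.93 against -0.46) and a difference of 0.29. Tmeff1, a membrane protein with follistatin domains that carries an inhibitor term, was 3.34-fold higher at E15 in a cluster with another symbol.

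The remaining inhibitors had differences on both sides. A2m, alpha-2-macroglobulin, which traps peptidases of every class, had a merged value of 1.40 in adult and -1.09 at E15, or 5.61-fold. Itih2, a heavy chain of the inter-alpha inhibitor that binds hyaluronan, was 2.44-fold higher in adult and was the only splicing-only member at 2-fold or more. Cd109, a membrane-anchored relative of A2m that limits TGF-beta signals, had -0.95. Lxn, or latexin, the inhibitor of carboxypeptidase A, was 2.77-fold higher at E15, and Pi15, a secreted trypsin inhibitor, 2.07-fold. Cst3, cystatin C, the cysteine peptidase inhibitor abundant in cerebrospinal fluid, had a difference of 0.72, below 2-fold.

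Some members are not known as peptidases or inhibitors. Plxnc1, a semaphorin receptor, was 4.21-fold higher at E15 and Slc35f3, a solute carrier, 3.92-fold higher in adult, each counted by a serine-type inhibitor term. Scrn1, a cytosolic secernin counted by a dipeptidase term, stood at -1.04 in adult and 1.05 at E15, or 4.26-fold. Abhd7, named Ephx4 in RefSeq and so an epoxide hydrolase, was 5.17-fold higher in adult under an aminopeptidase term. Crbn, a subunit of a ubiquitin ligase, had 0.88, Plod2, a collagen lysyl hydroxylase, -0.16, and Zdhhc3, a palmitoyltransferase, 0.07. The 8 members counted by the bare term peptidase activity alone all had negative differences, as did 54.1% of all clusters, and 2 of them (25%, against 24.4% of all clusters) were at least 2-fold, Apaf1 and 4632417K18Rik (2.42-fold), which is Fam111a in RefSeq and, unlike those just named, a known serine peptidase. The other 6, from Ky at -0.47 to the water channel Aqp11 at -0.05, included the iron sensor Trfr2 (Tfr2) at -0.33, the glutaminyl cyclase Qpct at -0.33, Fstl4 at -0.32 and Lrrc14 at -0.15. Terms inferred electronically were the sole basis for 83 of the 111 members (74.8%). Of the 28 others 5 (17.9%) were at least 2-fold higher in adult and 11 (39.3%) at E15, against 22.9% and 24.4% of all clusters, and these differences were not tested.

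By place, 40 members were annotated as extracellular, and 12 of them were at least 2-fold higher in adult and 12 at E15. The whole table had 149 and 177 of 592 extracellular clusters. Of 8 members placed in the nucleus 4 were at least 2-fold higher at E15 (Prep, Apaf1, Casp2 and Usp11) and none in adult, and over the whole table nuclear clusters had 268 of 891 toward E15 and 104 toward adult. Membrane members had 9 toward adult (23.1%) and 8 toward E15 (20.5%) of 39, and over the whole table membrane clusters had 476 (31.1%) and 313 (20.4%) of 1533. Just inside the 2-fold limit lay Usp45 at 1.05 and Usp20 at 1.11 toward adult and Trhde and Ctse at -1.01 each toward E15, and just outside lay Crbn at 0.88, the Atg4c cluster at 0.83, Cd109 at -0.95 and Pcsk5 at -0.90. After re-centring, Blmh, Ece1, Pi15, Ctse and Trhde also fell below 2-fold toward E15 and Crbn passed it toward adult.

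The labelled tissue was checked against marker genes of the cell types it could hold. Of 15 choroid plexus epithelial genes 6 had an entry, 5 of these were at least 2-fold higher in adult, from Slc13a4 at 1.95 to Prlr at 7.87, and Kcne2 had -1.13. Ttr, Otx2, Folr1 and Aqp1 had no entry, which in tables of selected clusters says nothing of their level. Markers of mature neurons (Camk2a, Syt1, Slc17a7 and Snap25) were 1.52 to 2.66 higher in adult and the neuroblast gene Dcx had -2.29, and all 3 oligodendrocyte entries of 7 were at least 2-fold higher in adult. Neuronal tissue is a known source of Pcsk2, Serpini1 and Uchl1, of which the first 2 were higher in adult and Uchl1 at E15, and the part of adjoining brain in these values was not tested. Macrophage entries were 4 of 12, all with negative differences and a median of -0.87, and of the mast cell genes Kit had -3.02 and Hdc -0.33, while the mast cell peptidases had no entry.

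**Figure D4:**
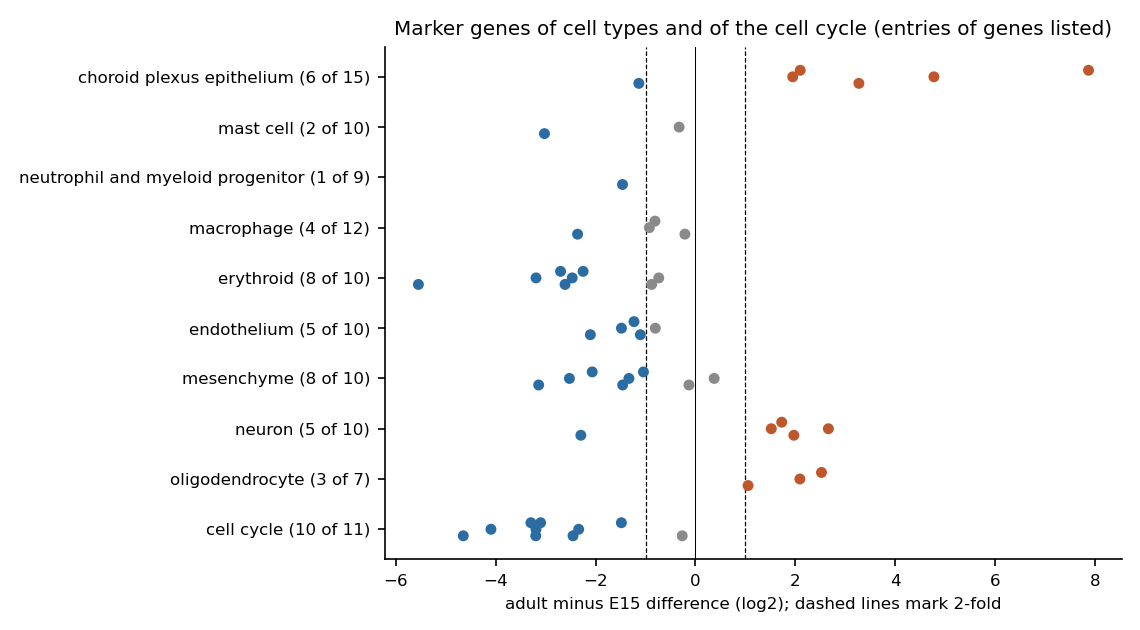
Adult minus E15 difference (log2, horizontal axis) of marker genes by cell type and for the cell cycle. The number of symbols that have an entry of those looked up follows each name. Points are single transcript clusters, orange at 2-fold or more toward adult, blue at 2-fold or more toward E15 and grey between. Erythroid, endothelial and cell cycle entries all lie below 0, and all oligodendrocyte entries and 5 of 6 epithelial entries lie above 1.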

How the data were processed

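The authors hybridised RNA of 3 E15 and 3 adult pools to 6 arrays and ran Affymetrix Power Tools (RMA summarisation, median scaling of each chip). They kept genes above a percentile limit of expression that all 3 replicates had to meet, and applied an unpaired test, corrected after Benjamini and Hochberg. The version of Affymetrix Power Tools and the genome build are not given in the sources used here. The deposited log2 values used here are 1 merged, centred value per age and transcript cluster in a gene-level table of 1805 clusters and a splicing index table of 3369. They were identical in the 1218 shared clusters, which the third table repeats (not used). Columns of the authors' fold changes, directions and splicing indices were not used.

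Both tables were joined to 3956 clusters, and members were found by text search of the ontology columns, a step tested on simulated rows. Differences, folds and counts were computed in Python 3.11.15 with pandas 2.3.3. Arrays are 3 per age, which limits precision, and no test could be run because 0 columns hold a single array; signal over background cannot be read from centred values. Members and lists were chosen with earlier results of these data known. Named were the 15 largest differences in each direction, members of the family lists and those nearest 2-fold; others of 2-fold or more and the members with doubtful terms were named as well. A few genes that the rule would name are not reported here. Neighbouring genes and current names come from the RefSeq gene table, where all 111 members matched by symbol or synonym. Alternatives were another fold limit (1.5 or 3), the gene-level table alone, the values of the splicing index table and re-centring. Others were different rules for shared symbols, electronic annotation left out and the exclusion terms not applied.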

Additional observations from a re-analysis of the deposited data

How the results depend on the processing

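No paired analysis was possible because the tables hold 1 merged value per age. Neither the replicate block nor leaving out each array could be run. The authors' gene-level filter is the only replicate test behind the calls, and it could not be recomputed. It covers the members at 2-fold or more except Itih2. Of 74 summary values recomputed under alternatives, 57 stayed within 1.5 times or 0.1 on the log2 scale of the reported one. These include values taken from the splicing index table, which are identical in shared clusters and so could not move. Counts at 2-fold or more in the gene-level table alone were nearly fixed too, since of those members only Itih2 lies outside it. Enzymes and inhibitors in this section each include the 5 clusters with both terms. So counted, 23 enzymes were at least 2-fold higher in adult and 23 at E15, and 10 and 7 inhibitors were. Leaving out electronic annotations left 28 members, with 5 at least 2-fold higher in adult, 11 at E15 and a median of -0.44. Enzymes then had 4 and 8, and inhibitors 1 and 3. The gene-level table alone held 58 members with a median of -1.01, since it lists no cluster below 2-fold. At 3-fold, 14 members were higher in adult and 8 at E15, 11 and 5 among enzymes and 4 and 3 among inhibitors. Re-centring both ages on the median of the joined table added 0.15 to every difference and gave a median of -0.011, and 8 members near 0 (Dnpep, Capn7, Adam22, the Serpinb1a and Serpinb1c cluster, Aqp11, Hp, Ece2 and Usp5) changed sign. It also moved the count at least 2-fold higher at E15 from 30 to 23 (enzymes from 23 to 17). Blmh, Ece1, Tll2, Pi15, Klk8, Ctse and Trhde fell below 2-fold. The count toward adult moved from 29 to 30 (enzymes from 23 to 24). Leaving out the 8 members counted by the bare term alone, an alternative chosen after seeing the data, left 103 members with 29 and 28 at 2-fold or more and a median of -0.10.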

Other observations

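The 42 clusters with peptidase or inhibitor terms that the exclusion words removed had 6 (14.3%) at least 2-fold higher in adult and 12 (28.6%) at E15, against 22.9% and 24.4% of all clusters, with a median difference of 0.07. Toward E15 stood Masp1, which starts the lectin path of complement, at -2.85, the membrane-type matrix metalloproteinase Mmp16 at -2.49, Adamts12 at -2.35, the carboxypeptidase-like Aebp1 at -2.23 and the secreted guidance protein Reln at -2.20. Toward adult stood Cpxm2, an inactive carboxypeptidase relative, at 4.03, or 16.4-fold, the lysosomal dipeptidyl peptidase Dpp7 at 2.38 and the lysosomal cathepsin Ctsc at 1.07. The tissue inhibitors of metalloproteinases, all among these 42, had differences of 1.05 (Timp2), 0.86 (Timp3), 0.40 (Timp4) and -0.64 (Timp1). Psen2 and App, the presenilin and the amyloid precursor, had 0.76 and 0.80.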
